A study of Mus musculus with 43 samples.

Results

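Mouse astrocytes grown by the preparation labelled MD cultured were compared with astrocytes collected directly after immunopanning, labelled IP acute. The members were chosen by name and not by any measured value. They were MD cultured replicates 1, 2 and 3 and IP acute replicates 2, 4 and 7 of the preparation table, 6 of the 43 libraries of the study. The study sequenced poly(A) RNA of cortical astrocytes from wild-type mice and models of Fragile X, Rett and Down syndrome, from cultures with and without BMP6, and from 9 libraries made to compare preparations. The remaining 3 libraries of that last set, immunopanned cells kept in culture and labelled IP cultured, are given here beside the members for orientation only.

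Immunopanning purifies cells by letting them bind to dishes coated with antibodies. The design text of the study describes it for the cortex of mice at postnatal day 7, followed, for the immunopanned cultures, by 12 days in a defined medium without serum. For the IP acute libraries the labels name no culture step. For the MD cultured libraries they give neither what MD stands for nor the age of the mice, the medium or the days in culture. In work on astrocytes MD is a common short form for the method of McCarthy and de Vellis, in which mixed cortical cells grow to a layer in medium with serum and loosely bound cells are shaken off. Whether it is meant here is not stated. Strain, sex and genotype are not given for either group, no genetic change or agent is named for them, and both Xist and the Y-linked Ddx3y were detected in each of the 6 libraries. All 9 libraries of the set carry the batch label 8. Preparation, medium, age and time in culture therefore cannot be told apart, and nothing says that the libraries of a group came from separate animals or cultures, so p-values measure the spread between these samples.

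Astrocytes clear glutamate and GABA from the space around synapses, buffer potassium and water, pass ions and metabolites through gap junctions, and supply neurons with lipids and lactate. In the first postnatal weeks they also secrete proteins that start, mature or limit synapses. After injury they become reactive, which in the mouse is marked by more Gfap and by acute-phase and complement genes, and in culture they can take on a spread, contractile form.

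Levels are length-corrected and are given in TPM, a reading of the deposited values that no label or header states. The values summed to 615449 to 617485 per library in IP acute and 625800 to 636722 in MD cultured, so neither a full TPM total nor an equal one was present in the table. Values are in the order IP acute 2, 4, 7 and MD cultured 1, 2, 3. Of 24537 genes, 13926 reached 1 TPM in at least 3 of the 6 libraries and were tested. A gene under 1 TPM in all libraries of a group could therefore be tested only through the other group. This limits the counts of list members given below, and the lists were drawn up with earlier results of these data known. TPM keeps no depth, so the reads behind a single value are unknown and no counting interval is given. Across tested genes, log2 levels correlated at r = 0.953 to 0.978 within IP acute, 0.974 to 0.987 within MD cultured and 0.720 to 0.765 between them. Genes are not independent replicates, so these r are descriptions, and every correlation within a group was above every one between the groups. MD cultured libraries had 12687 to 13064 genes at 1 TPM or more and IP acute libraries 13599 to 13814. The 20 most abundant genes took 17.9% to 19.7% of the total in MD cultured and 8.3% to 9.75% in IP acute.

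On log2(TPM + 0.5), 9171 genes (65.9% of those tested) passed an adjusted p of 0.05 in limma with Benjamini-Hochberg adjustment. Of these, 3218 (23.1% of the tested genes) were higher in MD cultured and 5953 (42.7%) lower. All 3 MD cultured libraries lay above all 3 IP acute libraries for 25.6% of the tested genes and below them for 46.8%. Differences of at least 1 on the log2 scale numbered 1584 upward and 3219 downward, and 214 and 665 genes exceeded 3. The direction of small differences depends on the scaling. The median difference over all tested genes was -0.24 as deposited, -0.01 after median-of-ratios scaling and 0.06 after quantile normalization. The split then became 4426 higher and 4565 lower, and 4788 higher and 4160 lower. Log2 differences are on the log2(TPM + 0.5) scale throughout, which understates the change of low genes, and they are MD cultured minus IP acute unless a fall is named. Counts of list members below can be read against the 23.1% and 42.7% of all tested genes where the 6 libraries were used as deposited. Counts after a rescaling belong beside the split of all genes under that rescaling. Counts without 1 library belong beside 2602 to 3111 genes higher and 5174 to 5838 lower.

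**Figure D1:**
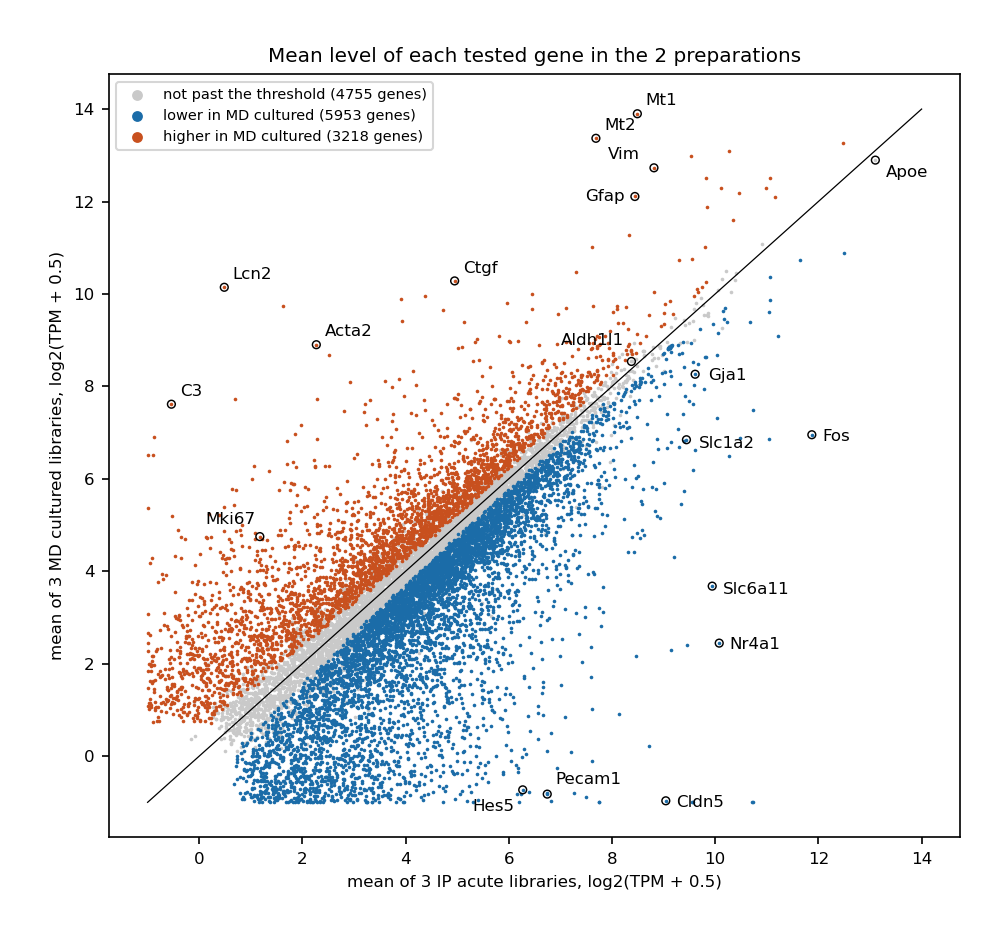
Mean level of each of the 13926 tested genes in the 3 IP acute libraries (x) and the 3 MD cultured libraries (y), both as log2(TPM + 0.5) of the mean. Orange points are the 3218 genes higher and blue points the 5953 genes lower in MD cultured, grey points missed the threshold, the line marks equal levels, and circled genes are described in the text.

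Genes used to define astrocytes were detected in both preparations, but not all at like levels. Among those described below, Slc1a2, Slc1a3, Fgfr3, Gja1 and S100b were lower in MD cultured. Gfap, Aldoc, Kcnj10 and Acsbg1 were higher, and Aqp4, Glul and Gjb6 missed the threshold. Aldh1l1, a folate enzyme used as a pan-astrocyte marker, read 225, 353 and 417 TPM in IP acute and 363, 355 and 397 TPM in MD cultured, and the groups overlapped (log2 difference 0.21, SE 0.22, adjusted p = 0.439). Apoe, the main lipid carrier secreted by astrocytes, read 11124, 6370.3 and 8914 TPM against 8001, 6934 and 7919 TPM, also overlapping (-0.17, SE 0.26, adjusted p = 0.58). The transcription factor Sox2 stood at 204 ± 51.2 TPM and 173 ± 18.4 TPM (SD, n = 3 libraries in this and every later mean ± SD), a log2 difference of -0.21 (SE 0.20, adjusted p = 0.396). The sign of these 3 differences turned under at least 1 alternative setting each. Sox2 was called lower without IP acute replicate 2 (-0.43, adjusted p = 0.0226) and Apoe after quantile normalization (-1.18, adjusted p = 0.00327). Sox9, a nuclear marker of astrocytes, was lower in MD cultured (-0.75, SE 0.23, adjusted p = 0.024), and its adjusted p was 0.0642 to 0.0762 without IP acute replicate 4 or 7 or MD cultured replicate 2 or 3, and 0.0718 after median-of-ratios scaling.

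Before the results, the other cells in the preparations need to be given, because the IP acute libraries differed in them. In bulk RNA, fewer cells of a type and less RNA per cell cannot be told apart. The 21 microglia and macrophage markers summed to 2526, 266 and 800.2 TPM in the 3 IP acute libraries and to 82.7, 159 and 99.0 TPM in MD cultured. Replicate 2 was the highest for microglia, and the same library was the highest for the 21 mural and fibroblast markers (3556, 1192 and 1926 TPM against 279, 580.4 and 422 TPM). Pdgfra and Cspg4 belong to these markers and also to those of oligodendrocyte precursors, so they enter the sums and counts of both. Other lists below share members too, among them Gfap, Vim, C3, Hes5 and Ctgf, so the counts of such lists are not independent. Replicate 4 was the highest for the 20 neuronal markers, with 928, 2799.9 and 872 TPM in IP acute and 405, 344 and 219 TPM in MD cultured.

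Endothelial markers had the lowest median of the 40 lists (-5.22). Their sum was 1859.8, 990.4 and 1258 TPM in IP acute and 73.3, 76.1 and 114 TPM in MD cultured, and 14 of 15 tested members were lower. Of these 15, 8 were under 1 TPM in all MD cultured libraries and so were tested only through IP acute. Cldn5, the tight junction protein of brain endothelium, stood at 677, 399 and 504 TPM in IP acute, at 0.035 TPM in MD cultured replicate 1 and at 0 in replicates 2 and 3. Pecam1, an adhesion molecule of endothelium, was at 144, 77.6 and 99.0 TPM against 0.046 to 0.092 TPM. The remaining endothelial signal in MD cultured came mainly from Slco1a4, an organic anion carrier, at 53, 12.2 and 16.6 TPM in IP acute and 60.8, 55.9 and 98.04 TPM in MD cultured, the only member that was higher (1.62, SE 0.53, adjusted p = 0.032). Its call was lost without any one of 5 libraries, all except IP acute replicate 2 (adjusted p = 0.0558 to 0.0977). Red cell transcripts went the same way as the endothelial markers. The haemoglobin genes Hba-a1, Hba-a2, Hbb-b1, Hbb-bs, Hbb-b2 and Hbb-bt and the haem enzyme Alas2 were listed at 0 in all 3 MD cultured libraries, against means of 38.9 TPM for Alas2 to 1691 ± 1098 TPM for Hbb-b1 in IP acute. The haemoglobin copies are nearly identical in sequence, so the division of reads among them is uncertain.

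For oligodendrocyte precursors, 11 of 11 tested markers were lower in MD cultured, with sums of 2708, 2013 and 2226 TPM against 343, 465 and 575 TPM. The growth factor receptor Pdgfra stood at 355, 239 and 244 TPM against 2.21, 1.20 and 0.718 TPM (log2 difference -7.27, SE 0.31, adjusted p = 1.3e-05). The lineage factor Sox10 fell from 65.4 ± 26.2 TPM to 0.432 ± 0.348 TPM, whereas Olig2, which immature astrocytes can also express, stood at 176, 168 and 208 TPM against 24.2, 46.0 and 56.8 TPM. Of the markers of myelinating oligodendrocytes, 3 of 9 were lower and 6 missed the threshold (2 were higher without IP acute replicate 2). Of the microglial markers 18 of 20 were lower, of the mural and fibroblast markers 14 of 21 (1 was higher, 2 without MD cultured replicate 1 or IP acute replicate 2) and of the neuronal markers 16 of 20. Under 1 TPM in all MD cultured libraries were 3 of 11 precursor, 4 of 21 microglial, 2 of 21 mural and fibroblast and 5 of 20 neuronal markers. Such markers could be tested only through IP acute. Csf1r, the growth factor receptor of microglia, read 185, 14.3 and 55.0 TPM in IP acute and 0.501, 1.56 and 0.835 TPM in MD cultured.

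Ciliated cell genes ran the other way. All 11 tested markers of ependyma and motile cilia were higher in MD cultured, and their sum was 58.1, 63.5 and 62.5 TPM in IP acute against 825, 686 and 404 TPM. Of 14 markers with values, 5 were under 1 TPM in all IP acute libraries, and such markers could be tested only through MD cultured. Foxj1, the regulator of motile cilia, stood at 8.62, 16.1 and 17.7 TPM against 352, 322 and 179 TPM (4.28, SE 0.35, adjusted p = 0.000116). Rsph1, a radial spoke protein of the cilium, rose from 3.18 ± 1.598 to 76.3 ± 28.5 TPM, and Cfap126, a protein of cilia and flagella, from 3.19 ± 0.627 to 42.6 ± 14.7 TPM. No MD cultured library overlapped an IP acute library for these 3 genes. The IP cultured libraries summed to 105, 317 and 103 TPM for the same markers. The part that these other cells play in the differences described next was not tested.

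**Figure D2:**
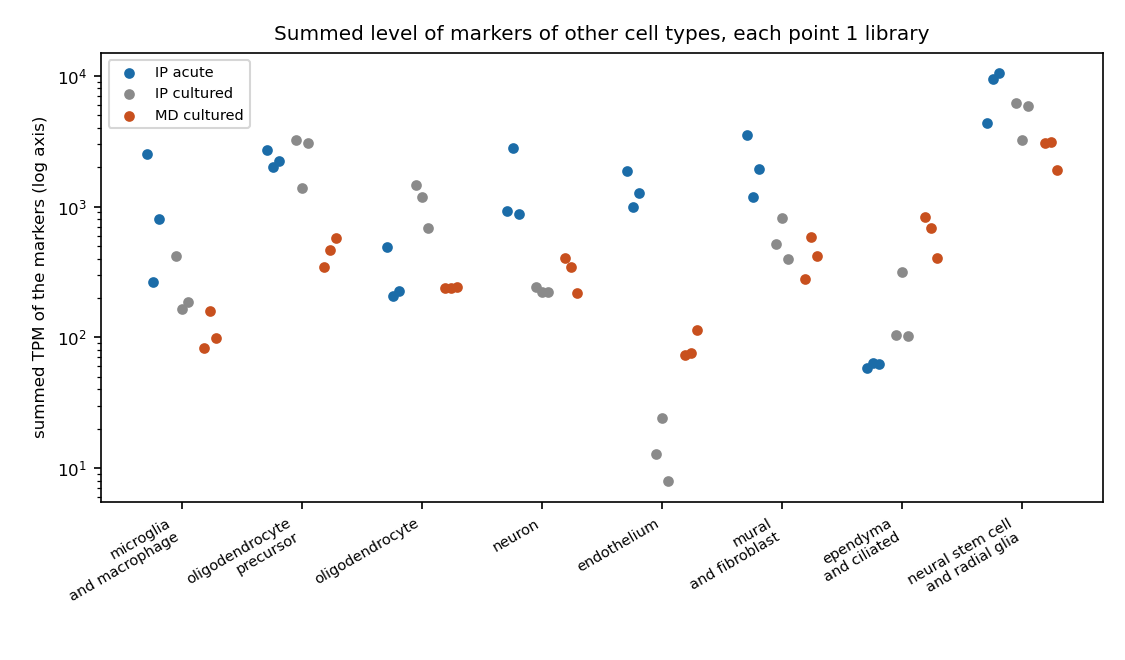
Summed TPM (log axis) of the markers of 8 other cell types and states in each of the 9 libraries of the preparation set, blue for IP acute, grey for IP cultured and orange for MD cultured. IP acute libraries are spread for microglia (266 to 2526 TPM), MD cultured libraries lie at 73.3 to 114 TPM for endothelium, and ciliated cell markers are highest in MD cultured (404 to 825 TPM).

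The glutamate and GABA handling genes were lower in MD cultured almost throughout. Of 15 tested, 12 were lower, none was higher and 3 missed the threshold, with a median log2 difference of -3.70 against -0.24 over all genes. Slc1a2 (GLT-1), which takes up most glutamate in the mature forebrain, read 1069.8, 413 and 603 TPM in IP acute and 142, 88.5 and 113 TPM in MD cultured, with no overlap (-2.51, SE 0.35, adjusted p = 0.00098). Slc1a3 (GLAST) read 2530.3, 2042 and 2609 TPM against 713, 503 and 407 TPM (-2.17, SE 0.22, adjusted p = 0.000284).

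The GABA transporter Slc6a11 (GAT-3) had the largest fall among the transporters of the list, from 1006, 891 and 1052 TPM to 17.7, 8.86 and 10.3 TPM, a ratio of means of 79.9 (-6.32, SE 0.24, adjusted p = 1.11e-05). Slc6a9, a glycine transporter, went from 120.4 ± 13.5 to 16.7 ± 6.09 TPM. Amino acid exchangers were lower too. Slc7a10, which carries serine, stood at 258, 142 and 181 TPM against 3.60, 2.59 and 2.20 TPM, and Slc7a11, the cystine-glutamate exchanger, at 85.5, 40.6 and 63.0 TPM against 0.988, 0.859 and 0.934 TPM.

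Receptors of the same transmitters were lower as well. Grm3, the metabotropic glutamate receptor that dominates in adult astrocytes, fell from 208, 169 and 209 TPM to 3.02, 0.900 and 0.673 TPM (-6.76, SE 0.40, adjusted p = 3.68e-05). Grm5, the receptor of young astrocytes, went from 50.1 ± 20.04 to 2.14 ± 1.17 TPM. Both GABA-B receptor subunits were lower, Gabbr1 at 372 ± 5.32 against 25.95 ± 3.04 TPM and Gabbr2 at 48.0 ± 8.27 against 0.422 ± 0.448 TPM. The 3 members that missed the threshold were enzymes and an exporter of the same cycle, but not every enzyme of the list missed it. Glul, the glutamine synthetase, read 2385, 1440.4 and 1959.8 TPM against 2017, 1554 and 2964 TPM (0.15, SE 0.29, adjusted p = 0.659), but was called lower after quantile normalization (-0.68, adjusted p = 0.0221). Slc38a3, which carries glutamine, was at 639 ± 106 against 493 ± 36.5 TPM (adjusted p = 0.064, and 0.0107 without IP acute replicate 4), and Abat, the GABA transaminase, at 155 ± 13.4 against 168 ± 17.1 TPM (adjusted p = 0.393).

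**Figure D3:**
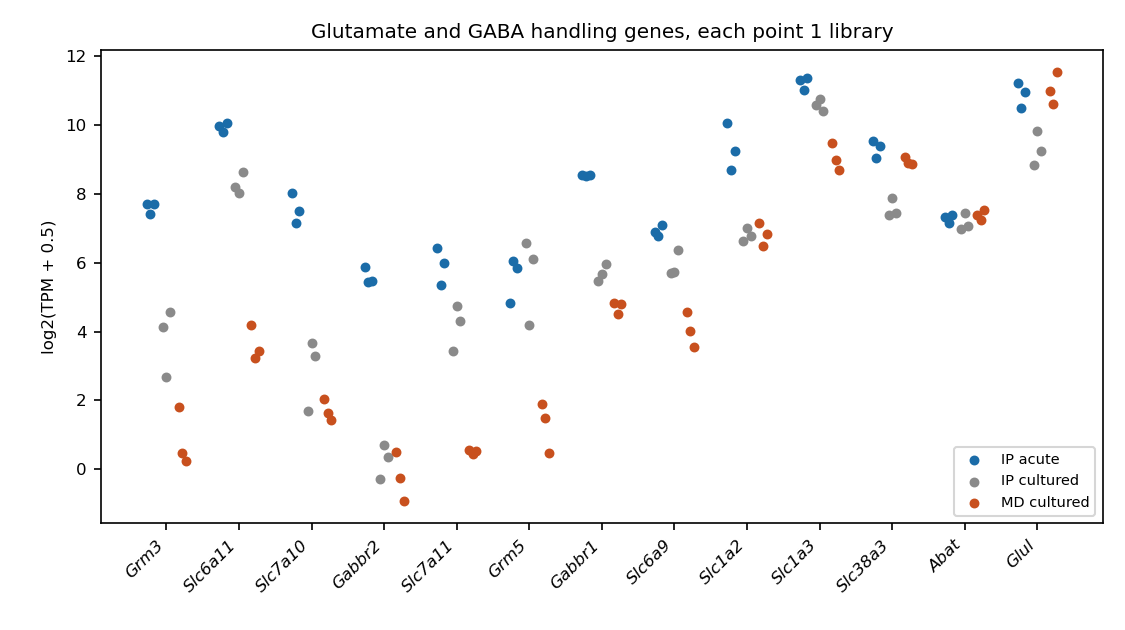
Level in log2(TPM + 0.5) of 13 glutamate and GABA handling genes in each library, ordered by the log2 difference between MD cultured (orange) and IP acute (blue), with IP cultured in grey. Grm3 (-6.76) and Slc6a11 (-6.32) lie at the left, and Slc38a3, Abat and Glul, which missed the threshold, at the right.

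Water, potassium and endfoot genes did not move as a group. Of 16 tested, 3 were higher, 6 lower and 7 not past the threshold, a median of -0.19 against -0.24 over all genes. Both shares were near the 23.1% and 42.7% of all tested genes. Aqp4, the water channel of the astrocyte endfoot, read 732, 594 and 788 TPM in IP acute and 779, 415 and 301 TPM in MD cultured, overlapping (-0.60, SE 0.34, adjusted p = 0.154). MD cultured replicate 1 was the high library, and without it Aqp4 was lower (-0.98, adjusted p = 0.00773). The inward rectifiers split. Kcnj10 (Kir4.1) read 329, 195 and 258 TPM against 397, 365 and 463 TPM (0.67, SE 0.20, adjusted p = 0.0224), and its partner subunit Kcnj16 (Kir5.1) 70.7, 39.1 and 50.0 TPM against 6.73, 2.80 and 1.78 TPM (-3.78, SE 0.44, adjusted p = 0.000441). The rise of Kcnj10 was lost without IP acute replicate 7 or MD cultured replicate 1 or 3 (adjusted p = 0.0511 to 0.0724), and without MD cultured replicate 1 a single member of the list was higher (5 after median-of-ratios scaling). The bicarbonate cotransporter Slc4a4 fell from 216 ± 33.9 to 80.4 ± 10.9 TPM. The sodium pump subunit Atp1b2 was at 1118 ± 329.8 and 1276 ± 75.3 TPM (adjusted p = 0.391).

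Gap junction and adhesion genes were lower in 5 of 9 tested and higher in 2. Gja1, the main astrocyte connexin (Cx43), read 1078, 522 and 746 TPM against 454, 285 and 181 TPM, a difference without overlap (-1.39, SE 0.38, adjusted p = 0.0173). Gjb6 (Cx30), a connexin that appears later in development, spread from 7.81 to 106 TPM in IP acute and stood at 10.4, 6.47 and 11.3 TPM in MD cultured (adjusted p = 0.183), and it was lower without IP acute replicate 4 (-2.25, adjusted p = 0.0335). Cldn10, a claudin of astrocytes, fell from 203 ± 61.1 to 40.5 ± 8.40 TPM and Ncan, the proteoglycan neurocan, from 1047 ± 409.9 to 158 ± 25.2 TPM. Cdh2 (N-cadherin) was the clearest exception, at 102, 109 and 113 TPM against 257, 255 and 284 TPM (1.29, SE 0.09, adjusted p = 5.57e-05).

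Genes of astrocyte metabolism, shuttle and clearance went both ways, 7 of 19 higher and 7 lower. Aldoc, the brain aldolase, read 1027, 759.9 and 953 TPM against 3429, 3253 and 4569.8 TPM (2.03, SE 0.19, adjusted p = 0.000206). Mt3, the brain metallothionein, rose from 739 ± 93.6 to 8070.1 ± 573 TPM, Acsbg1, a fatty acyl-CoA synthetase of the brain, from 278 ± 33.9 to 665 ± 91.1 TPM, and the secreted chaperone clusterin (Clu) from 895 ± 420.2 to 2082 ± 139 TPM. Among the lower members, Dio2, which activates thyroid hormone, read 164, 69.1 and 96.0 TPM against 5.33, 5.73 and 11.3 TPM, and Slco1c1, a thyroid hormone carrier, 724, 312 and 428 TPM against 26.8, 37.3 and 40.8 TPM (-3.78, SE 0.38, and -3.72, SE 0.32). The glycogen phosphorylase Pygm was at 13.3 ± 8.41 against 0.729 ± 0.135 TPM.

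Among 19 astrocyte transcription factors 11 missed the threshold, 2 were higher and 6 lower (10 lower without IP acute replicate 2). The largest fall was that of Hes5, a Notch target of neural progenitors and young astrocytes, from 76.1, 68.3 and 85.6 TPM to 0.117, 0.075 and 0.117 TPM (-6.99, SE 0.14, adjusted p = 3.22e-06). IP cultured libraries held 9.64, 11.1 and 31.7 TPM. Of 13 tested Notch pathway genes 11 were lower, with a median of -2.65. The ligands Dll3 (17.4 ± 2.76 against 0.249 ± 0.0762 TPM), Dll1 (15.5 ± 2.24 against 2.78 ± 1.08 TPM), Jag1 (17.1 ± 2.20 against 1.83 ± 0.544 TPM) and Jag2 (13.0 ± 3.04 against 1.17 ± 0.272 TPM) were all lower. Of the receptors, Notch3 fell from 66.6 ± 11.9 to 12.6 ± 3.24 TPM and Notch1 from 69.0 ± 12.1 to 39.4 ± 6.00 TPM. Among target genes Nrarp, a feedback inhibitor, read 125, 165 and 179 TPM against 9.16, 8.33 and 6.83 TPM (-4.18, SE 0.17, adjusted p = 1.26e-05), while Hey1 stood at 121 ± 10.5 and 113 ± 11.7 TPM (adjusted p = 0.479). Notch2 was the one member higher in MD cultured (0.54, SE 0.17, adjusted p = 0.0249). That call was lost without IP acute replicate 2 or 4 or MD cultured replicate 1 or 2 (adjusted p = 0.0693 to 0.0803).

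A list of EGF and FGF receptors, EGF family ligands and feedback genes was lower in 12 of 16 tested. It was higher in 2 (1 without MD cultured replicate 2 or IP acute replicate 2 or 4). Etv4, a transcription factor induced by FGF, read 85.3, 119 and 145 TPM against 7.86, 10.6 and 10.7 TPM (-3.50, SE 0.22, adjusted p = 4.29e-05). The Sprouty inhibitors Spry1 (99.4 ± 18.4 against 17.4 ± 6.94 TPM) and Spry4 (37.6 ± 8.12 against 7.21 ± 2.20 TPM) were lower, as was Egfr (51.0 ± 5.23 against 19.7 ± 0.660 TPM). The FGF receptors Fgfr3 and Fgfr1 of the same list parted. Fgfr3, the astrocyte form, was at 209 ± 28.9 against 59.0 ± 3.14 TPM and Fgfr1 at 82.7 ± 13.7 against 232 ± 12.8 TPM.

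TGF-beta and BMP signalling genes were lower in 13 of 21 and higher in 5. Among ligands, Bmp7 fell from 34.2, 20 and 28.99 TPM to 2.34, 1.93 and 2.17 TPM (-3.38, SE 0.21, adjusted p = 4.37e-05) and Tgfb1 from 27.1 ± 12.7 to 2.30 ± 0.991 TPM. Bmp6, the ligand given to other cultures of this study, was higher instead, at 25.8, 3.43 and 11.7 TPM against 133, 141 and 130.1 TPM (3.65, SE 0.62, adjusted p = 0.00223), and so was Tgfb3 at 6.44 ± 0.550 against 25.5 ± 2.12 TPM. The receptor Tgfbr1 and its mediator Smad3 were lower (-2.12, SE 0.14, and -1.56, SE 0.12). Smad6, the inhibitor that BMP signalling induces, was higher at 4.46, 4.69 and 5.46 TPM against 9.66, 10.8 and 14.9 TPM (1.17, SE 0.19, adjusted p = 0.00168). Ltbp2, a matrix protein of the latent TGF-beta binding family, stood at 0.0377 ± 0.0369 TPM in IP acute and 41.5, 73.7 and 158 TPM in MD cultured.

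Secreted regulators of synapses were split by member, 5 of 17 higher and 10 lower. Gpc4, a glypican that recruits AMPA receptors to young synapses, read 33.7, 37.9 and 46.1 TPM against 332, 418 and 365 TPM (3.23, SE 0.14, adjusted p = 1.48e-05). Its relatives went down, Gpc6 from 28.1 ± 3.46 to 9.48 ± 0.240 TPM and Gpc5 from 59.9 ± 31.1 to 2.03 ± 0.704 TPM. Thrombospondins, which promote the formation of excitatory synapses, differed in sign too. Thbs1 read 9.07, 11.7 and 17.9 TPM against 186, 304 and 273 TPM (4.27, SE 0.28, adjusted p = 5.28e-05) and Thbs4 went from 15.3 ± 15.3 to 0.164 ± 0.0235 TPM. Of the paired matrix proteins, the synapse antagonist Sparc rose from 1409 ± 474 to 4673 ± 749 TPM, and Sparcl1 (hevin), which it opposes, fell from 2148 ± 577 to 937 ± 312 TPM (1.77, SE 0.27, adjusted p = 0.00139, and -1.21, SE 0.30, adjusted p = 0.0107). Chrdl1, which drives the AMPA receptor switch of maturing synapses, fell from 66.4, 58.0 and 68.8 TPM to 18.98, 13.7 and 12.5 TPM. The growth factor pleiotrophin (Ptn) went from 1962, 1929 and 2414 TPM to 155, 122.4 and 70.4 TPM, a ratio of means of 18.1 (-4.24, SE 0.28, adjusted p = 5.67e-05).

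**Figure D4:**
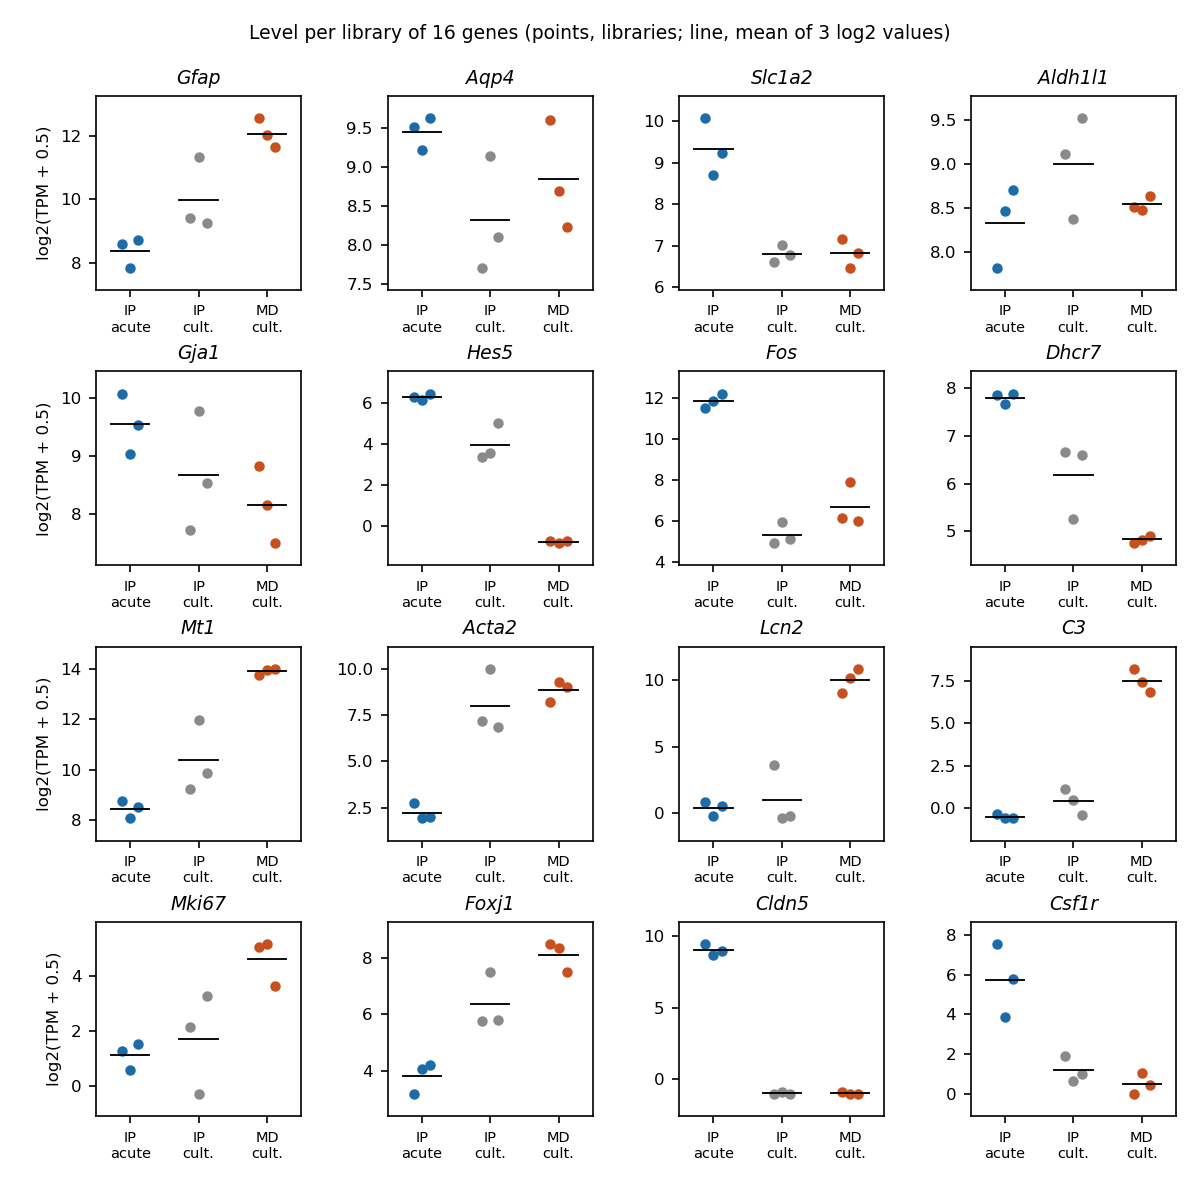
Level in log2(TPM + 0.5) of 16 genes in the 9 libraries of the preparation set, blue for IP acute, grey for IP cultured and orange for MD cultured, each point a library and each line the mean of 3 log2 values, on axes that differ between genes. Groups of MD cultured and IP acute overlap for Aqp4 and Aldh1l1 and are apart for the other genes.

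Cholesterol synthesis was lower as a whole set. As deposited, all 24 tested genes had a negative difference, 23 passed the threshold (22 after median-of-ratios scaling) and the median was -1.68. Dhcr7, the last enzyme of the pathway, read 232, 203 and 235 TPM against 26.6, 27.9 and 29.5 TPM, and the MD cultured libraries lay within a few TPM of each other. Hmgcs1, an early enzyme of the pathway, fell from 660.3 ± 163 to 167 ± 6.75 TPM and the regulator Srebf2 from 170.2 ± 21.4 to 72.6 ± 4.43 TPM. The exception was Ebp, a sterol isomerase, at 20.6 ± 4.50 and 17.3 ± 0.198 TPM (-0.23, SE 0.16, adjusted p = 0.236), whose sign turned after either rescaling.

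Fatty acid genes showed no common direction, 5 of 17 higher and 7 lower (4 lower after median-of-ratios scaling and without MD cultured replicate 2 or 3 or IP acute replicate 7). Both shares as deposited were near those of all tested genes, 23.1% higher and 42.7% lower. The synthesis enzymes Fasn (137 ± 27.1 against 52.5 ± 6.49 TPM) and Elovl6 (34.3 ± 1.77 against 8.79 ± 0.349 TPM) were lower. Fabp5, a fatty acid binding protein, was also lower, at 398, 319.7 and 339 TPM against 69.2, 62.3 and 60.6 TPM (-2.45, SE 0.11, adjusted p = 1.48e-05). Acadm, which starts the oxidation of medium-chain fatty acids, was higher at 52.4 ± 5.87 against 137 ± 6.04 TPM.

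Immediate early genes, transcription factors and regulators that cells switch on within minutes of many stimuli, were lower in MD cultured in 24 of 24 cases, with a median of -3.63. Fos read 2901, 3636 and 4711 TPM in IP acute, where it was the fourth most abundant gene, and 69.7, 237 and 63.5 TPM in MD cultured (-5.17, SE 0.50, adjusted p = 0.000234). The nuclear receptor Nr4a1 read 653, 1117 and 1470.4 TPM against 2.93, 8.28 and 3.63 TPM, and Fosb 544, 684 and 882 TPM against 1.96, 10.5 and 1.93 TPM (-7.68, SE 0.42, and -7.42, SE 0.59). MD cultured replicate 2 was the highest of its group for all 3 genes. The fall of Jun was from 629.6 ± 105 to 103 ± 30.3 TPM and that of Ier5 the smallest of the list (40.8 ± 13.96 to 19.5 ± 2.45 TPM, adjusted p = 0.00817). Klf2 and Klf4, factors that endothelial cells also express strongly, went from 169.7 ± 27.97 and 163 ± 47.7 TPM to 3.59 ± 0.698 and 5.72 ± 2.11 TPM. IP cultured libraries were low as well, with 30.2, 61.2 and 34.04 TPM of Fos.

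Heat shock chaperones went both ways, with 4 of 14 higher and 5 lower (3 lower after median-of-ratios scaling and without MD cultured replicate 1 or 3 or IP acute replicate 2). As deposited these shares were near the 23.1% and 42.7% of all tested genes. The small chaperones Cryab (88.2, 51.1 and 46.4 TPM against 822, 891 and 981 TPM) and Hspb1 (7.01, 2.80 and 5.74 TPM against 65.8, 82.4 and 82.0 TPM) rose by 3.90 and 3.84 on the log2 scale. The stress-induced Dnajb1 fell from 106 ± 10.8 to 28.2 ± 3.00 TPM.

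The intermediate filament and S100 genes held 4 of 7 members higher and 2 lower (1 lower without MD cultured replicate 2 or 3 and after either rescaling). Gfap, the filament of mature and reactive astrocytes, read 388, 232 and 422 TPM in IP acute and 5961, 4114 and 3169.9 TPM in MD cultured, a ratio of means of 12.7 (3.66, SE 0.31, adjusted p = 0.000136). Vim (vimentin) read 392, 428 and 528 TPM against 7156, 7151 and 6055 TPM, a ratio of 15.1 (3.92, SE 0.16, adjusted p = 1.3e-05). The groups were far apart for both. S100a6, a calcium-binding protein, rose from 86.4 ± 20.7 to 811 ± 131 TPM and Nes (nestin) from 51.3 ± 7.99 to 106 ± 19.8 TPM. S100b, the calcium-binding protein of mature astrocytes, was lower at 99.8, 23.8 and 33.97 TPM against 19.04, 13.0 and 10.7 TPM (-1.61, SE 0.52, adjusted p = 0.0298), a call lost without MD cultured replicate 2 or 3 (adjusted p = 0.0789 and 0.0887) and after either rescaling (0.055 and 0.0662).

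Of 13 genes listed as induced in reactive astrocytes of any kind, 12 were higher and none lower, with a median of 2.49. Of the 13, 1 was under 1 TPM in all IP acute libraries and so was tested only through MD cultured. Lcn2 (lipocalin 2), an iron-carrying acute-phase protein, rose furthest among the called genes with a mean of at least 10 TPM and no overlap, from 1.34, 0.357 and 1.00 TPM to 507, 1116 and 1771 TPM (9.55, SE 0.49, adjusted p = 2.28e-05). Serpina3n, a secreted protease inhibitor, read 17.4, 14.96 and 19.4 TPM against 363, 366 and 239.8 TPM (4.17, SE 0.19, adjusted p = 1.53e-05). Timp1, an inhibitor of matrix proteases, rose from 4.98 ± 1.36 to 47.9 ± 14.7 TPM, the oncostatin M receptor Osmr from 9.20 ± 3.37 to 51.8 ± 5.35 TPM and the hyaluronan receptor Cd44 from 18.5 ± 4.85 to 51.3 ± 2.05 TPM. Cxcl10, an interferon-induced chemokine, was the member that missed the threshold, at 53.2, 17.3 and 28.8 TPM against 25.8, 13.8 and 11.7 TPM (-0.87, SE 0.45, adjusted p = 0.131), and it was called lower without IP acute replicate 4 (-1.26, adjusted p = 0.0385). In IP cultured libraries Lcn2 was at 11.6, 0.280 and 0.369 TPM and Serpina3n at 26.97, 12.4 and 12.8 TPM. The 13 genes together summed to 748 to 1077 TPM in IP acute, 2736, 5583 and 2399 TPM in IP cultured and 11619.8 to 14307.5 TPM in MD cultured. Gfap and Vim make up much of this sum. Gfap read 676, 2563 and 611 TPM and Vim 1752, 2798 and 1628 TPM in IP cultured, above every IP acute library.

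Genes named A1, for reactive astrocytes after inflammation, were higher in 9 of 13 and lower in 1. Of these 13, 2 were under 1 TPM in all IP acute libraries and so were tested only through MD cultured. C3, the central complement component, read 0.260, 0.148 and 0.157 TPM in IP acute and 296, 175 and 115 TPM in MD cultured (8.05, SE 0.33, adjusted p = 1.28e-05). Fkbp5, a chaperone induced by glucocorticoids, rose from 8.87 ± 1.86 to 142 ± 7.26 TPM and Fbln5, an elastic fibre protein, from 8.70 ± 3.03 to 174 ± 41.0 TPM. The lower member was Srgn (serglycin), a proteoglycan of blood and endothelial cells, at 66.9 ± 32.2 against 6.94 ± 1.34 TPM. Genes named A2, for reactive astrocytes after ischaemia, were higher in 7 of 12 and lower in 4. Of these 12, 3 were tested only through MD cultured in the same way. Cd109, a membrane protein that binds TGF-beta, read 2.53, 2.55 and 3.17 TPM against 135, 126 and 76.8 TPM (5.08, SE 0.23, adjusted p = 1.48e-05), and Ptgs2, the inducible cyclooxygenase, went down from 13.9 ± 4.35 to 1.65 ± 0.495 TPM.

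The interferon response genes were higher in 18 of 21 and lower in none, with a median of 1.31. Of 24 listed, 4 were under 1 TPM in all IP acute libraries, and such members could be tested only through MD cultured. In the fit of all 9 libraries 14 were higher, beside 2851 of all genes, and without 1 library 13 to 18 were higher. Ifitm3, a membrane protein that blocks viral entry, read 83.0, 45.8 and 62.4 TPM against 447, 536 and 524 TPM (3.00, SE 0.21, adjusted p = 6.88e-05). Ifi27, at 83.8 TPM, and Bst2, at 45.3 TPM, had the next highest means in MD cultured. Ifit3 stood at 2.42, 0.428 and 1.08 TPM against 16.7, 5.89 and 11.2 TPM and Isg15 at 4.13 ± 1.74 against 10.6 ± 2.89 TPM. IP cultured libraries had 499, 169.7 and 233 TPM of Ifitm3. Complement and MHC class I genes were higher in 6 of 13 and lower in none (1 lower without IP acute replicate 4). The proteases C1ra (0.470 ± 0.220 against 12.7 ± 1.48 TPM) and C1s1 (1.77 ± 0.423 against 18.7 ± 2.32 TPM), which start the classical complement pathway, rose beside C3, and H2-K1 rose from 56.1 ± 14.9 to 123 ± 1.98 TPM. The MHC light chain B2m, at 467, 169.6 and 245 TPM against 364, 488 and 386 TPM, missed the threshold (adjusted p = 0.172), and it was higher without IP acute replicate 2 (1.00, adjusted p = 0.00763).

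Chemokines and cytokines were lower in 11 of 14, with a median of -4.21. Of 17 listed, 8 were under 1 TPM in all MD cultured libraries, and such members could be tested only through IP acute. Ccl3 stood at 435, 35.1 and 118 TPM in IP acute and 0.189, 0.845 and 0.252 TPM in MD cultured, Ccl4 at 235, 18.6 and 66.5 TPM against at most 0.145 TPM, and Tnf at 35.3, 2.23 and 8.05 TPM against at most 0.086 TPM. IP acute replicate 2 was the highest and replicate 4 the lowest for all 3. The summed microglial markers of the same libraries were 2526, 266 and 800.2 TPM, in the same order, and microglia are a known source of these factors. Their part in the result was not tested. Other falls were less uneven among the IP acute libraries. Cxcl12, which endothelial and other cells secrete, read 90.1, 68.4 and 76.5 TPM against 1.93, 2.81 and 3.41 TPM (-4.63, SE 0.20, adjusted p = 1.35e-05), and Cxcl1, a neutrophil attractant, fell from 94.7 ± 23.03 to 1.41 ± 0.316 TPM. Csf1, the growth factor of microglia, was one of 2 higher members, at 59.1, 26.01 and 44.2 TPM against 202, 221 and 195 TPM (2.32, SE 0.28, adjusted p = 0.000508).

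Oxidative stress genes and metallothioneins held the most abundant transcripts of MD cultured. Of 14 tested, 12 were higher. Mt1 and Mt2, small proteins that bind zinc and copper, together took 3.79% to 4.25% of the summed TPM in MD cultured and 0.0715% to 0.109% in IP acute. Mt1 read 441, 271 and 367 TPM against 13858, 15740.1 and 16222 TPM, a ratio of means of 42.5 (5.43, SE 0.21, adjusted p = 1.06e-05). Mt2 read 233, 170.2 and 214 TPM against 9836, 11053 and 10816 TPM (5.69, SE 0.15, adjusted p = 4.7e-06). In IP cultured libraries Mt1 was at 602, 4067 and 949.8 TPM, highest in replicate 4. Hmox1, the inducible haem oxygenase, rose from 33.4 ± 9.98 to 464 ± 196 TPM, the peroxiredoxin Prdx6 from 321 ± 67.8 to 2486 ± 505 TPM, and Gstm1, a glutathione transferase, from 194 ± 39.8 to 2068 ± 507 TPM. Gclc and Gclm, the subunits of the enzyme that makes glutathione, rose less (1.58, SE 0.11, and 1.04, SE 0.09). The lower member was the cystine exchanger Slc7a11, given above.

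Contractile cytoskeleton genes and targets of SRF and YAP were higher in 21 of 28 and lower in 3 (1 lower after median-of-ratios scaling), with a median of 1.53. Of 29 listed, 3 were under 1 TPM in all IP acute libraries, and such members could be tested only through MD cultured. Acta2, the smooth muscle actin, read 6.16, 3.31 and 3.50 TPM in IP acute and 292, 616 and 525 TPM in MD cultured (6.61, SE 0.33, adjusted p = 2.1e-05). Tagln (transgelin), an actin-binding protein, read 13.9, 14.3 and 15.2 TPM against 749.5, 1177 and 911 TPM (5.96, SE 0.16, adjusted p = 4.7e-06). Ctgf, a matricellular target of YAP, read 41.0, 23.9 and 26.3 TPM against 806, 1189 and 1738 TPM (5.30, SE 0.32, adjusted p = 3.84e-05). No libraries overlapped for these genes. Lmod1 and Cnn1, proteins of smooth muscle filaments, rose from 0.194 ± 0.218 and 0.595 ± 0.391 TPM to 36.1 ± 4.61 and 26.2 ± 12.3 TPM, and the widely expressed Actn1 and Myh9 from 31.3 ± 5.33 and 15.8 ± 8.03 TPM to 213 ± 22.4 and 102 ± 15.1 TPM. Pericytes and smooth muscle also express the contractile genes. Of the 21 mural and fibroblast markers 14 were lower in MD cultured, 1 was higher (Fmod, a matrix proteoglycan, with an adjusted p of 0.0546 without MD cultured replicate 3) and 6 missed the threshold. Their part in the contractile result was not tested. Among these markers Rgs5 and Kcnj8 were lower (585 ± 215 against 19.2 ± 11.1 TPM and 42.5 ± 11.8 against 0.648 ± 0.617 TPM). The factor Srf itself was lower (40.7, 63.6 and 69.1 TPM against 11.5, 13.9 and 12.1 TPM), as was Cyr61, a YAP target that is also an immediate early gene (1059 ± 228 against 572 ± 165 TPM, adjusted p = 0.0164, and 0.0538 without IP acute replicate 7 and 0.0547 after median-of-ratios scaling). IP cultured libraries had 144, 1009 and 114 TPM of Acta2, with replicate 4 above every MD cultured library.

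SRF binds the CArG box, the pairs CC and GG with 6 A or T bases between them, and is known to serve both contractile and immediate early genes, which here moved in opposite directions. The letters were searched in the 250 bases before each RefSeq start (mouse build GRCm38.p6). A match was present for 4 of 24 contractile list genes with a window (16.7%), for 2 of 20 immediate early genes (10%) and for 439 of all 27025 genes (1.62%). Both lists hold genes picked as known SRF targets, so shares above that of all genes are no independent support. Vcl, Myl9 and Cnn2 with a match were higher in MD cultured, and Srf, Egr2 and Zfp36 with a match were lower, so the letters were found on genes of either direction. Most members of either list had no match in these bases. Sites further away or with other letters were not searched, so a missing match does not mean that a gene lacks an SRF site. Windows of members that had one are shown, or the part nearest the start. They read 5′ to 3′ along the gene, end at the base before the start and have the matches in capitals.
Vcl, chr14:20929148-20929397, + strand: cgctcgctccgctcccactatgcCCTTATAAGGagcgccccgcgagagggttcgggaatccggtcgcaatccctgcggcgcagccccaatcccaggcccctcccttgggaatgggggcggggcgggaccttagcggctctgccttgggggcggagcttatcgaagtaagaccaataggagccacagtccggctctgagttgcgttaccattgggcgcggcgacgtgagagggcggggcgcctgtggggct
Myl9, chr2:156775284-156775463, + strand: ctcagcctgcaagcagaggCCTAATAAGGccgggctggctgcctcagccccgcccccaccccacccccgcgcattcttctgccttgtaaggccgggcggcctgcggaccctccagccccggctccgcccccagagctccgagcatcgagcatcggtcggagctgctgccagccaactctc
Cnn2, chr10:79988500-79988599, + strand: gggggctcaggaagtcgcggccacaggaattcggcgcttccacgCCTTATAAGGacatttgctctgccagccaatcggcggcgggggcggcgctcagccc
Srf, chr17:46556163-46556282, - strand: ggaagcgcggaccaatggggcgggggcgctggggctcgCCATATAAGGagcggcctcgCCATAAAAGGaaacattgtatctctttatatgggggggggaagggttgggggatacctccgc
Egr2, chr10:67537769-67537868, + strand: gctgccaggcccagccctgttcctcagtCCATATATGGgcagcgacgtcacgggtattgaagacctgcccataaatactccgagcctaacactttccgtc
Zfp36, chr7:28379229-28379328, - strand: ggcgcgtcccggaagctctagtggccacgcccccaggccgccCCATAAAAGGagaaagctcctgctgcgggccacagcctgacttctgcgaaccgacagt

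Srf has 2 matches, and Egr2 is shown for 1 of its 5 start sites, 4 of which have a match. Vcl (vinculin), which links actin to adhesions, read 58.7, 26.03 and 40.2 TPM against 63.2, 71.9 and 73.3 TPM (0.80, SE 0.27, adjusted p = 0.0364), a call lost without IP acute replicate 7 or any MD cultured replicate (adjusted p = 0.061 to 0.0942) or with no filter on low values (0.0515). Myl9, the light chain of smooth muscle myosin, read 145, 92.5 and 116 TPM against 183, 317 and 286 TPM (1.135, SE 0.25, adjusted p = 0.00637). Cnn2 (calponin 2), an actin-binding protein, rose from 44.9 ± 20.1 to 167 ± 55.3 TPM. Egr2, a zinc finger factor, read 30.98, 32.95 and 35.2 TPM against 0.857, 4.36 and 2.04 TPM, and Zfp36, which destabilizes cytokine mRNA, 522, 359.7 and 536 TPM against 66.9, 170.3 and 61.9 TPM (-3.71, SE 0.43, and -2.38, SE 0.40).

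Of 27 genes of the matrix list, 7 were higher and 13 lower, near the shares of all tested genes (23.1% and 42.7%). The 4 aggregating proteoglycans of the list were lower. Bcan (brevican) read 1208, 1126 and 1373 TPM against 121, 75.2 and 70.9 TPM (-3.83, SE 0.21, adjusted p = 3.07e-05), Vcan (versican) fell from 66.1 ± 5.50 to 3.61 ± 0.933 TPM, and Hapln1, which links them to hyaluronan, from 83.1 ± 40.4 to 2.31 ± 1.84 TPM. Enzymes that crosslink collagen and elastin were higher, Lox at 4.61, 0.573 and 2.07 TPM against 19.4, 69.4 and 72.5 TPM (4.27, SE 0.70, adjusted p = 0.0019) and Loxl2 at 5.20 ± 2.57 against 27.8 ± 8.20 TPM. Among basement membrane genes, Nid1 (nidogen) fell from 142 ± 45.7 to 14.7 ± 6.71 TPM and Lamb1 (laminin beta) from 54.9 ± 18.9 to 7.66 ± 3.90 TPM, as were the endothelial and mural markers of the same libraries (990.4 to 1859.8 TPM against 73.3 to 114 TPM, and 1192 to 3556 TPM against 279 to 580.4 TPM), whose part was not tested.

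Collagens were higher in 5 of 15 and lower in 2 (1 without IP acute replicate 2 or 7 or MD cultured replicate 1 or 3, 4 without IP acute replicate 4). Col8a1, a short-chain collagen of vessels, read 1.58, 0.580 and 0.430 TPM against 9.55, 24.2 and 23.03 TPM (3.82, SE 0.45, adjusted p = 0.000463). Col12a1, which binds collagen fibrils, rose from 3.87 ± 1.00 to 27.6 ± 7.28 TPM and Col5a2, a fibril former, from 15.5 ± 4.59 to 83.1 ± 25.1 TPM. Col1a1, the main fibrillar collagen of fibroblasts, spread from 4.09 to 64.6 TPM in IP acute and from 19.1 to 68.5 TPM in MD cultured (0.68, SE 0.98, adjusted p = 0.564), with a sign that turned without IP acute replicate 4. Of 16 proteases and inhibitors 6 were higher and 7 lower. The gelatinase Mmp9 fell from 11.2 ± 7.78 to 0.0460 ± 0.0145 TPM. Of 12 integrins and Cd44 tested, 2 were higher (4 after median-of-ratios scaling and without MD cultured replicate 1) and 4 lower, with Itga3, a laminin receptor, at 4.64 ± 1.28 against 28.7 ± 6.29 TPM. As deposited these shares were not above the 23.1% and 42.7% of all tested genes.

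The counts of cell cycle genes depended on single libraries and on the scaling. Mki67, a protein of dividing cells, read 1.91, 1.00 and 2.36 TPM in IP acute and 32.6, 34.7 and 12.0 TPM in MD cultured (3.48, SE 0.45, adjusted p = 0.000676). Cenpe, a kinetochore motor of mitosis, rose from 1.33 ± 0.262 to 9.77 ± 4.78 TPM. Top2a, a topoisomerase of S phase and mitosis, read 45.4, 61.4 and 61.9 TPM against 134, 114 and 45.1 TPM and overlapped (adjusted p = 0.183). Top2a was higher without MD cultured replicate 3 (1.15, adjusted p = 0.00301), and MD cultured replicate 3 was the lowest of its group for Mki67 and Top2a. Mcm6, a DNA replication helicase subunit, was lower (60.5 ± 5.82 against 33.3 ± 9.02 TPM, adjusted p = 0.00946). Over the list, 9 of 38 were higher and 5 lower. After median-of-ratios scaling 15 were higher and 2 lower, beside 4426 higher and 4565 lower of all 13926 genes. In a fit of all 9 libraries 2 were higher and 0 lower, beside 2851 and 5573 of all genes. Without MD cultured replicate 3 the counts were 21 and 2, without replicate 1 they were 4 and 3, without replicate 2 only 3 were higher and without IP acute replicate 2 only 4. Without IP acute replicate 4 or 7, 2 were lower. The IP cultured libraries spread from 0.334 to 9.28 TPM for Mki67.

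CDK inhibitors and p53 targets were higher in 12 of 15 and lower in 2 (1 without IP acute replicate 2 or 7 or MD cultured replicate 2 and after either rescaling). Ccng1 (cyclin G1), a p53 target, read 31.8, 31.02 and 33.3 TPM against 486, 475 and 403 TPM (3.80, SE 0.10, adjusted p = 4.7e-06). Cdkn1a (p21) read 91.1, 74.5 and 90.2 TPM against 242, 349 and 267 TPM (1.73, SE 0.16, adjusted p = 0.000183), and Pmaip1, which promotes cell death, rose from 8.99 ± 6.39 to 48.6 ± 7.84 TPM. Cdkn2a, the locus of p16 and p19ARF, was higher but low in level, at 0.602 ± 0.0112 against 3.40 ± 0.665 TPM, while IP cultured libraries held 44.4, 8.90 and 22.03 TPM. The lower members included Cdkn1c (p57), at 25.2 ± 5.28 against 7.93 ± 3.67 TPM.

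Glycolysis and hypoxia genes were higher in 12 of 24 and lower in 4. Pfkp, the platelet form of phosphofructokinase, read 34.5, 17.6 and 16.7 TPM against 119, 138 and 169 TPM (2.67, SE 0.29, adjusted p = 0.000339) and Aldoa rose from 449.5 ± 15.4 to 1054 ± 96.8 TPM, while the hypoxia-induced Vegfa fell from 151 ± 26.9 to 20.03 ± 3.98 TPM and the glucose transporter Slc2a1, which brain endothelium also carries, from 248 ± 59.3 to 101 ± 10.7 TPM. Respiratory chain subunits were higher in 17 of 24 (10 in a fit of all 9 libraries) and lower in none, with a median of 0.37. Ndufa1 of complex I was at 159 ± 11.3 against 327 ± 65.4 TPM and Sdha of complex II was at 170.1 ± 1.82 against 302 ± 13.1 TPM. Of the cytosolic ribosomal proteins 15 of 23 were lower, with a median of -0.44 against -0.24 over all genes. After median-of-ratios scaling 8 of 23 were lower and 1 higher, beside 4565 of all 13926 genes lower, a share near the background. After quantile normalization 14 were lower and 1 higher, beside 4160 of all genes lower, with a median of -0.38 against 0.06 over all genes. The result therefore depended on the scaling. Many of them have near-identical copies in the genome that can share reads. Lysosomal genes were higher in 6 of 17 and lower in 3 (5 without IP acute replicate 4), led by the proteases Ctsd (631 ± 211 against 1697 ± 208 TPM) and Ctsb (298 ± 55.5 against 661 ± 22.9 TPM), whereas Npc1, which exports cholesterol from lysosomes, fell from 93.0 ± 10.2 to 36.0 ± 2.38 TPM.

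The list of neural stem cell and radial glia genes, which overlaps young astrocytes, was higher in 1 of 14 (2 without MD cultured replicate 3 or IP acute replicate 4 and after either rescaling) and lower in 5 (3 without MD cultured replicate 3 or IP acute replicate 7). As deposited, the share lower was not above the 42.7% of all tested genes. The sum of the list was 4339, 9519 and 10473 TPM in IP acute and 3037, 3111 and 1915 TPM in MD cultured. Ptprz1, a receptor phosphatase of radial glia and the receptor of pleiotrophin, read 1239, 1394 and 1657 TPM against 149, 114 and 90.4 TPM (-3.62, SE 0.20, adjusted p = 3.1e-05).

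**Figure D5:**
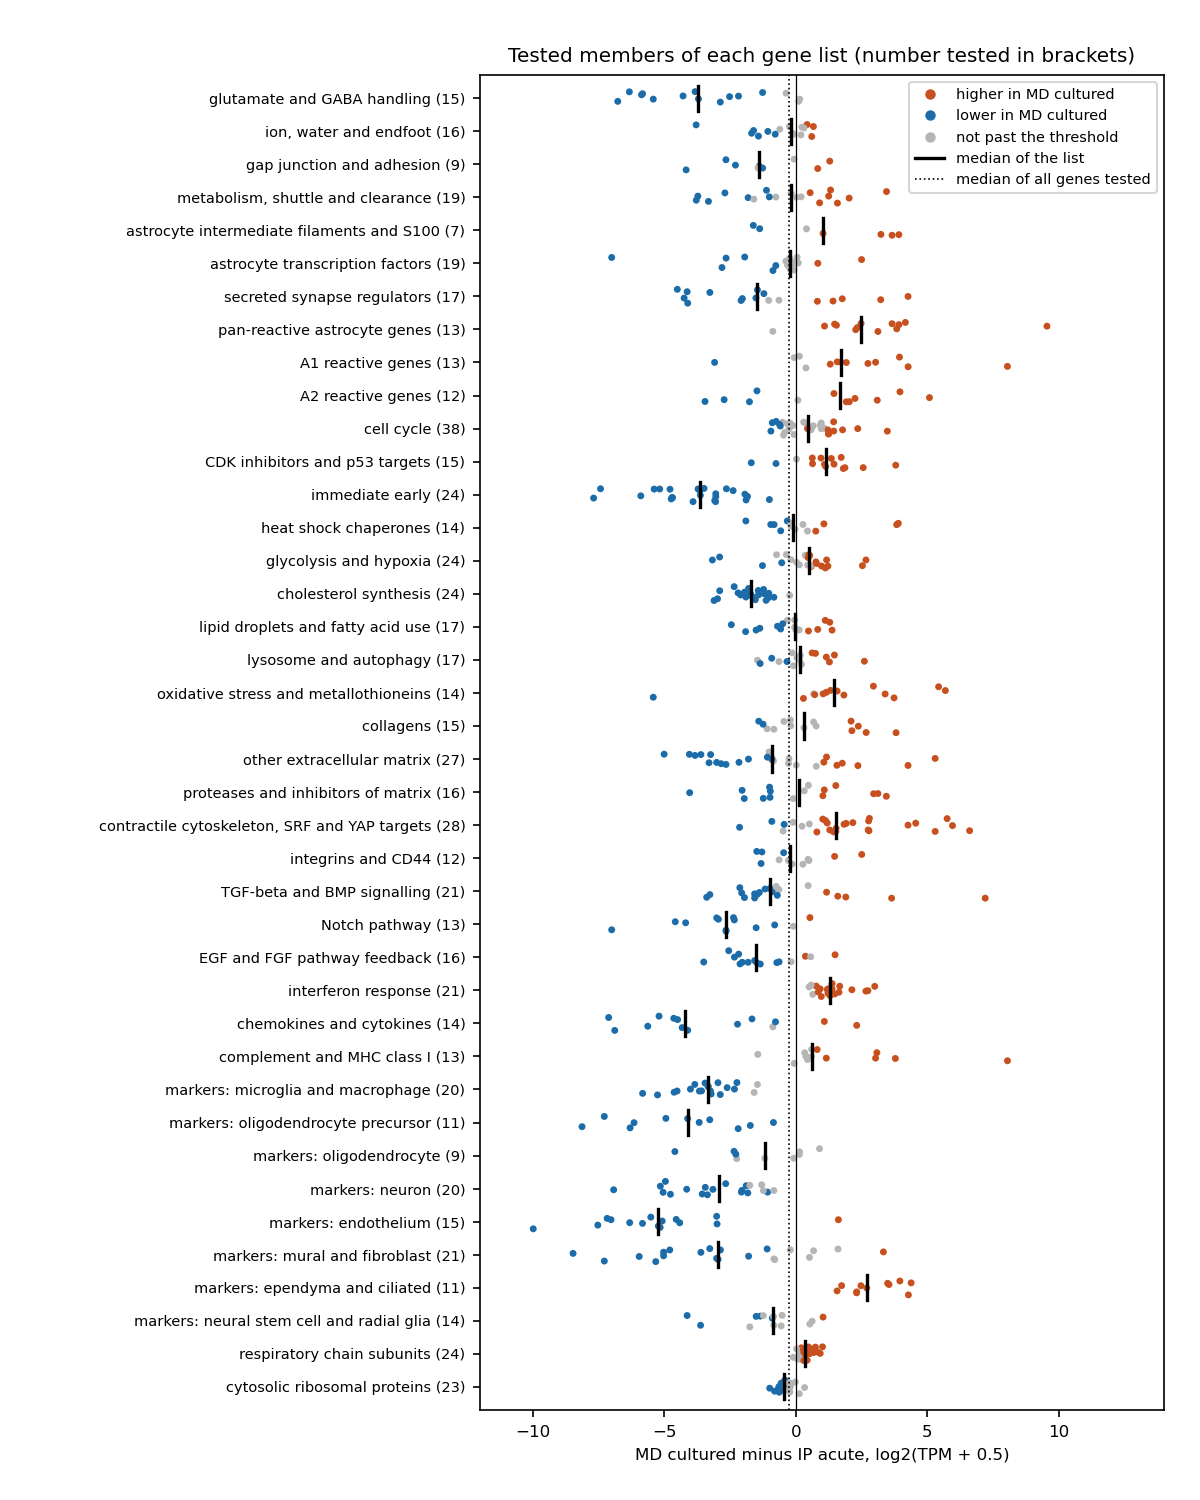
Log2 difference, MD cultured minus IP acute, of each tested member of 40 gene lists, orange where higher and blue where lower past the threshold and grey where not. The thick line is the median of the list and the dotted line the median of all tested genes (-0.24). Immediate early genes (median -3.63) and cholesterol synthesis (-1.68) lie to the left, interferon response (1.31) and pan-reactive genes (2.49) to the right.

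The 15 largest rises among genes with a mean of at least 10 TPM in the higher group and no overlap began with Lcn2. Of those outside the lists, Glycam1, a mucin-like adhesion ligand, read 2.43, 1.85 and 3.52 TPM in IP acute and 742, 799 and 1035 TPM in MD cultured (8.14, SE 0.22, adjusted p = 4.7e-06). Wisp2, a matricellular protein of the family of Ctgf, read 0.054, 0.085 and 0 TPM against 129, 122.2 and 107 TPM. Dlk1, an imprinted relative of the Notch ligands, read 0.700, 1.09 and 1.55 TPM against 280.2, 188 and 168 TPM (7.04, SE 0.26, adjusted p = 9.67e-06), while the canonical ligands above were lower. Defb1, a defensin, was listed at 0 in all 3 IP acute libraries and at 25.8, 42.5 and 203 TPM in MD cultured. The open reading frame 1500015O10Rik read 4.13, 5.58 and 5.89 TPM against 341, 423 and 468 TPM, and Akr1c14, a steroid reductase, rose from 4.38 ± 2.42 to 211 ± 5.82 TPM. In IP cultured libraries Glycam1 was at 36.5, 112 and 31.3 TPM and Dlk1 at 0.616, 2.75 and 0.803 TPM. The records Mir6978 and Mir6367 were also among the 15 largest rises. Poly(A) libraries are not made to capture small RNA, so these levels are given as those of the records and not of mature miRNAs.

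Beside the haemoglobin genes, the largest falls outside the lists were those of Pglyrp1, a bacterial peptidoglycan receptor, from 214, 109 and 133 TPM to at most 0.146 TPM, and Car4, a carbonic anhydrase of capillaries, from 181, 62.7 and 92.4 TPM to at most 0.038 TPM. With the haemoglobin genes, Cldn5, Pecam1, Vtn, Gpr17, Pdgfra, Nr4a1 and Fosb they make up the 15 largest falls. Of these, 5 are named in the lists of other cell types and 2 are immediate early genes. Vtn (vitronectin), which pericytes secrete, read 761, 178 and 325 TPM against 0.371, 1.58 and 0.057 TPM, and Gpr17, a receptor of committed oligodendrocyte precursors, 340.2, 92.9 and 105 TPM against at most 0.048 TPM.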

How the data were processed

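Poly(A) RNA was sequenced in 50 bp single-end reads, per the labels. The deposited preparation table gives no unit in its header. Its values were read as TPM, made by the authors, because value times transcript length summed to more than a library's FPKM values can, and that reading is not stated by any label. The values sum to less than a full TPM total, between 615449 and 636722 in the 6 libraries. TPM keeps no depth, so no counting error is given. The build was mm10, per the submitters' processing notes, which name DESeq2 1.14.1 and HOMER 4.10.4, the aligner STAR 2.5.3a and, for read quality, FastQC 0.11.8. Which one made the TPM is not given in the sources used here. The library kit keeps strand, but whether counting used it is not stated, so overlapping and antisense genes are uncertain.

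From these values, genes at 1 or more in at least 3 of the 6 libraries were fitted as log2(TPM + 0.5) by the moderated linear model of limma (version 3.58.1, R 4.3.3), two-sided, with a mean-variance trend and no covariate, with Benjamini-Hochberg adjustment over all 13926 tested genes and a threshold of 0.05. Adjusted p-values without another name come from this fit. The deposited fold changes and p-values were not used. Scripts were tested on simulated data. Alternatives were other pseudocounts, filters and scalings, a minimum log2 difference of 1, other variance settings, all 9 libraries in the fit and each library left out. Fits without 1 library kept the tested genes of the full fit, and a group of 2 then remains.

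Of 679 entries in 40 gene lists, 678 were found in the table, 2 of them by RefSeq accession. The lists and the genes in them were chosen with earlier results of these data known, so their counts are descriptions and not independent support. Genes named were 8 anchors, the 15 largest rises and falls, and from each list the members of smallest p, the missed members of largest p and the most abundant. Chosen after their values were seen were Acsbg1, Alas2, Bst2, Cdkn1c, Clu, Cnn1, Cnn2, Ddx3y, Dll1, Egr2, Gabbr2, Gclm, Gpc5, Grm5, Hmox1, Ier5, Ifit3, Isg15, Jun, Kcnj10, Lamb1, Lox, Loxl2, Mmp9, Myh9, Myl9, Nid1, Notch1, Notch2, Notch3, Osmr, Pmaip1, Pygm, Slc2a1, Slc6a9, Smad6, Sox2, Sox9, Spry1, Spry4, Srebf2, Srf, Tgfb1, Tnf, Top2a, Vcl, Xist and Zfp36. Promoter windows are RefSeq sequence of GRCm38.p6, searched for the CArG box on both strands. Some genes are not reported here.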

Additional observations from a re-analysis of the deposited data

How the results depend on the processing

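No paired analysis was possible because IP acute replicates 2, 4 and 7 and MD cultured replicates 1, 2 and 3 share only 1 number. The counts of 9171 genes past the threshold, 3218 higher and 5953 lower were within 1.5 times of these values under the other pseudocounts, filters, scalings and variance settings and in the fit of all 9 libraries, and fell to 4803, 1584 and 3219 where a log2 difference of at least 1 was also asked. Leaving out 1 library gave 7824 to 8898 genes, 2602 to 3111 higher and 5174 to 5838 lower. Rescaling moved the share of calls that were higher from 35.1% to 49.2% (median of ratios) and 53.5% (quantile). Among the genes named in the text, those whose difference changed sign were 7 that had missed the threshold, and signs of the other tested genes were not followed. After median-of-ratios scaling they were 0.0773 for Apoe, 0.0439 for Sox2, 0.158 for Hey1 and 0.0179 for Ebp, and after quantile normalization 0.0717 for Ebp and -0.677 for Glul. Leaving out 1 library gave -0.0478 to 0.395 for Aldh1l1, -0.389 to 0.0126 for Apoe, -0.0929 to 0.373 for Glul and -0.38 to 1.53 for Col1a1. In the fit of all 9 libraries, Clu, Cyr61, Gja1, Isg15, Mcm6, Myl9, Notch2, Slco1a4, Sox9, Sparcl1 and Vcl lost their call (adjusted p = 0.05 to 0.226). The cause of these losses was not tested.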
